A study of Homo sapiens with 8 samples.

Results

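CEBPB-bound genomic sites were compared for their reporter activity between a pair of human lines: HepG2, which comes from a hepatocellular carcinoma, and K562, which comes from a leukaemia. The members were the 1730 bound sites of the deposited table, of 3095 elements in all. The other 1365 elements were scrambled sequences, each named after the bound site it belongs to. A site entered the comparison when at least 3 of its 4 barcodes had at least 10 reads in every DNA library, which 1286 sites and 1046 scrambled elements did. The remaining 444 bound sites were not tested. All 8 libraries of the series were used: 2 transfections of each line, each with a DNA and an RNA library. The plasmid pool was delivered with FuGENE, so all groups carried the same elements on transfected plasmids. Each line is a single established cell line, and a difference between the lines cannot be told apart from other differences between these cultures. The reads are reporter barcodes, so the identity of the lines was not checked against marker genes.

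CEBPB is a basic leucine zipper transcription factor that binds DNA as a dimer and recognises a palindromic site. It is known in liver for the acute phase response and in the myeloid lineage for the maturation of granulocytes and macrophages. CRE-seq places a short genomic element beside a reporter gene with a barcode in its transcript, and reads activity as the RNA of that barcode over its DNA in the same cells. The series title is about RNA polymerase II (Pol2) found away from promoters at such binding sites. Each site in the table has 1 of 6 class names, made of a line (HepG2, K562 or Shared) and of Pol2 or NOPol2. The classes are not defined in the table and are read here as the line of CEBPB binding, with or without the polymerase. Site names give the position in the table, and hg19 is the build named in the submitters' processing notes. No gene, exon or intron was assigned to a site.

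Library totals lay between 9965393 and 10193122 reads. Log2 RNA/DNA was set to 0 at the typical scrambled element of each library. The difference is HepG2 minus K562 of that value. A positive difference thus means more reporter RNA per plasmid, relative to the scrambled elements of the same line, in HepG2 than in K562. Any difference between the lines that the scrambled elements share is removed. An element was called different at an adjusted p under 0.05 in edgeR's quasi-likelihood test of the interaction of line and read type, adjusted over all 2332 tested elements. The transfections of K562 differed more from each other than those of HepG2, with an SD of the difference over scrambled elements of 0.501 against 0.32, while the fit gives all libraries a shared spread. The p-values rest on a spread per element that is pooled over the DNA and RNA libraries of 2 transfections per line. The labels call the transfections independent. Variance between replicates was 2.86 (HepG2) and 2.54 (K562) times counting noise for DNA, and 16.5 and 37.7 times for RNA. The p-values and SEs thus do not measure the spread of RNA/DNA between transfections alone, and they can understate the spread of RNA.

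Each element was read through its barcodes, which are 9-base tags in the reporter transcript. They are printed here for 3 sites because they show whether a difference between the lines repeated from tag to tag. The first is the site with the largest difference towards HepG2, the next the site with the largest difference towards K562, and the last a site where a single tag carried the difference. Capitals mark the whole tag as the counted sequence.
chr6:36634962 barcode 1: AAGCACCGT
chr6:36634962 barcode 2: CTACAGCAA
chr6:36634962 barcode 3: GGCCGATTG
chr6:36634962 barcode 4: TAGCTGCAA
chr10:24858332 barcode 1: ACTCTCGTG
chr10:24858332 barcode 2: ATCCTGCCA
chr10:24858332 barcode 3: CAAGAACTT
chr10:24858332 barcode 4: GGTTCGAAC
chr6:89850041 barcode 1: CAATCTGCT
chr6:89850041 barcode 2: CCACGTTAT
chr6:89850041 barcode 3: GTAGTTGAT

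For chr6:36634962, a shared site with Pol2, the log2 differences of barcodes 1 to 4 were 6.15, 6.30, 5.70 and 5.91. Barcode 2 alone had 212990 and 171982 reads in the HepG2 RNA libraries, against 3463 and 3007 in the K562 RNA libraries, from 2773 to 2981 DNA reads per library. All its tags were thus far higher in HepG2. For chr10:24858332, a K562-bound site with Pol2, the differences of barcodes 1 to 4 were -2.63, -1.96, -3.34 and -2.76, all towards K562. For chr6:89850041, a HepG2-bound site without Pol2, they were 0.79, 5.99 and 0.48. Barcode 2 of that site had 6370 and 5410 HepG2 RNA reads, while barcodes 1 and 3 had between 23 and 64. Without barcode 2 the difference of the whole site was -0.12 (edgeR adjusted p = 0.96).

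Of the 1286 bound sites, 246 were higher in HepG2 and 68 were higher in K562, 19.1% and 5.29%, or 24.4% in either direction. Over all 2332 elements 12.8% were called higher in HepG2 and 3.95% higher in K562, or 16.7% in either direction. Over the scrambled elements alone the shares were 4.97% and 2.29%, or 7.27% in either direction. The median difference of bound sites was 0.09, with the middle 50% between -0.16 and 0.52, and that of scrambled elements was -0.02, with the middle 50% between -0.20 and 0.19. Large differences lay mostly on the HepG2 side. A called difference of at least 1 on the log2 scale was seen in 129 bound sites towards HepG2, 10%, and in 18 towards K562, 1.4%, against 9 and 1 of 1046 scrambled elements, 0.86% and 0.0956%. Over all elements these shares were 5.92% and 0.815%. At least 2 on the log2 scale was reached by 53 sites towards HepG2 and by 1 towards K562, and at least 3 by 18 and by 0 (in the same edgeR test 68 sites were called towards K562 at any size). The groups of transfections did not overlap in any called bound site, which the call itself favours. The groups of transfections did not overlap in 60.8% of all tested bound sites, 47.9% of scrambled elements and 55% of all elements. Without HepG2 transfection 1 the counts were 149 and 26, and without HepG2 transfection 2 they were 154 and 29. They were 266 and 60 without K562 transfection 1 and 240 and 50 without K562 transfection 2. With the median over barcodes tested in limma, 100 and 14 sites were called.

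**Figure D1:**
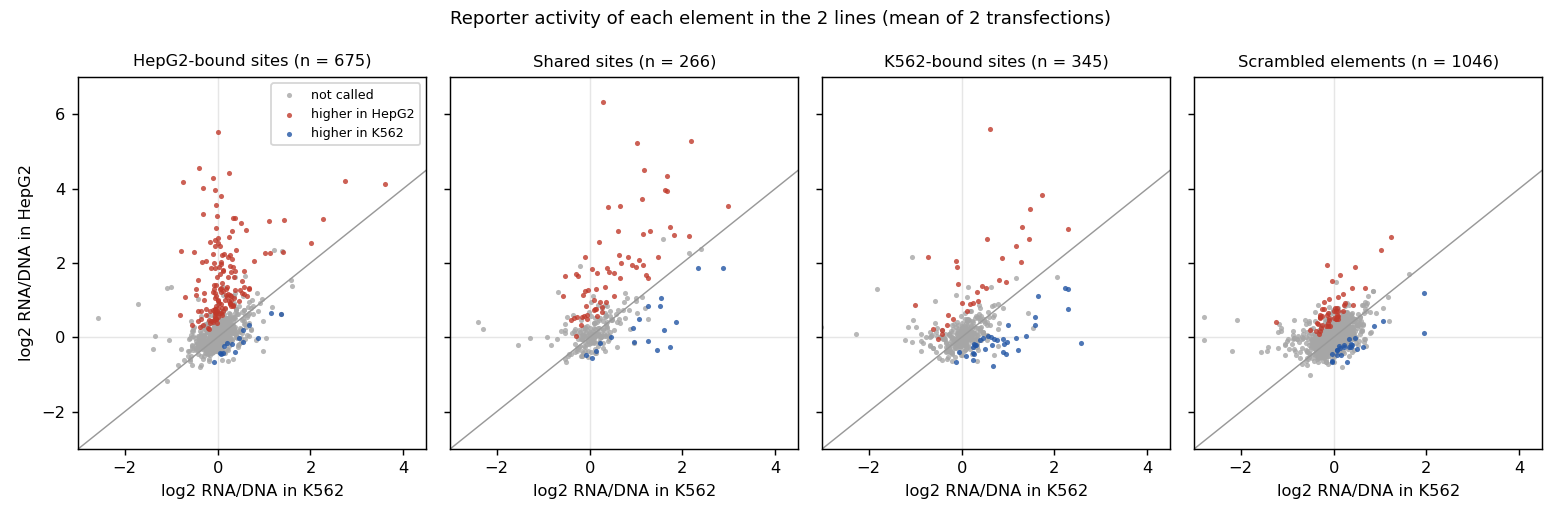
Log2 RNA/DNA of each tested element in K562 (horizontal) and HepG2 (vertical), as the mean of 2 transfections, in panels for 675 HepG2-bound, 266 shared and 345 K562-bound sites and 1046 scrambled elements. The grey diagonal marks equal activity, and red and blue points are elements called higher in HepG2 or in K562. Red points reach far above the diagonal for HepG2-bound and shared sites, and blue points below it are most frequent among K562-bound and shared sites.

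Called differences leaned to HepG2 in HepG2-bound and shared sites and were near even in number in K562-bound sites. The shares over all elements were 12.8% towards HepG2 and 3.95% towards K562. Over the scrambled elements of HepG2-bound, K562-bound and shared sites they were 5.05%, 5.96% and 3.16% towards HepG2. Towards K562 they were 2.35%, 1.66% and 3.16%. HepG2-bound sites were higher in HepG2 in 150 of 675 cases, 22.2%, and higher in K562 in 15, 2.22%. K562-bound sites split almost evenly, with 32 of 345 higher in HepG2, 9.28%, and 35 higher in K562, 10.1%. Their share towards HepG2 was below that of all elements and their share towards K562 above it. This split pools sites with Pol2, 14 towards HepG2 and 27 towards K562, and sites without it, 18 and 8. Shared sites were higher in HepG2 in 64 of 266 cases, 24.1%, and higher in K562 in 18, 6.77%. Median differences were 0.13 for HepG2-bound, 0.01 for K562-bound and 0.11 for shared sites, against 0.09 over all bound sites. The mean of HepG2-bound sites exceeded that of K562-bound sites by 0.20 and 0.20 in the HepG2 transfections and differed from it by -0.09 and -0.05 in the K562 transfections, a shift of 0.27 (exact two-sided permutation test over 4 transfections, p = 0.333, the smallest that 2 against 2 can give).

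Counts are also given by the polymerase label. Sites with Pol2 were higher in HepG2 in 173 of 711 cases and higher in K562 in 46, 24.3% and 6.47%. Sites without it were higher in HepG2 in 73 of 575 cases and higher in K562 in 22, 12.7% and 3.83%. Over all elements the shares were 12.8% and 3.95%, so those of sites without Pol2 lay near that background. Over the scrambled elements they were 4.97% and 2.29%. A difference of at least 1 was called towards HepG2 in 99 sites with Pol2 and 30 without, and towards K562 in 17 with Pol2 and 1 without. Over all elements a difference of that size was called in 5.92% towards HepG2 and in 0.815% towards K562. Of the 6 classes, K562-bound sites with Pol2 held more sites higher in K562 than in HepG2, and the other 5 the reverse. That order held in every alternative for which counts per class were computed, most narrowly without K562 transfection 1, where K562-bound sites with Pol2 gave 21 towards K562 and 20 towards HepG2.

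Sites with Pol2 also had more DNA reads. The medians with and without Pol2 were 3740 and 2928 reads per library for HepG2-bound sites, 3081 and 2150 for K562-bound sites, and 4245 and 3072 for shared sites. Calls became more frequent with depth: 11.2% of the third of bound sites with the fewest DNA reads were higher in HepG2 and 2.80% higher in K562, against 25.9% and 9.09% of the third with the most. In the same ranges of DNA reads scrambled elements were called higher in HepG2 in 3.77% and 6.44% of cases. The part of depth in the counts per class was not tested beyond the values for sites with at least 2000 DNA reads, where 9.60% of K562-bound sites with Pol2 were higher in HepG2 and 16% higher in K562, against 30.5% and 1.77% of HepG2-bound and 40.5% and 10.8% of shared sites with Pol2. Without Pol2 these shares were 15.3% and 7.06% for K562-bound, 18.8% and 4.42% for HepG2-bound and 13.2% and 6.58% for shared sites. At that depth the share towards HepG2 was thus lower with Pol2 than without it in K562-bound sites, and higher with Pol2 in the other pairs. These comparisons of classes were not tested. No share over all elements was computed at that depth, and over all depths it was 12.8% towards HepG2 and 3.95% towards K562.

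**Figure D2:**
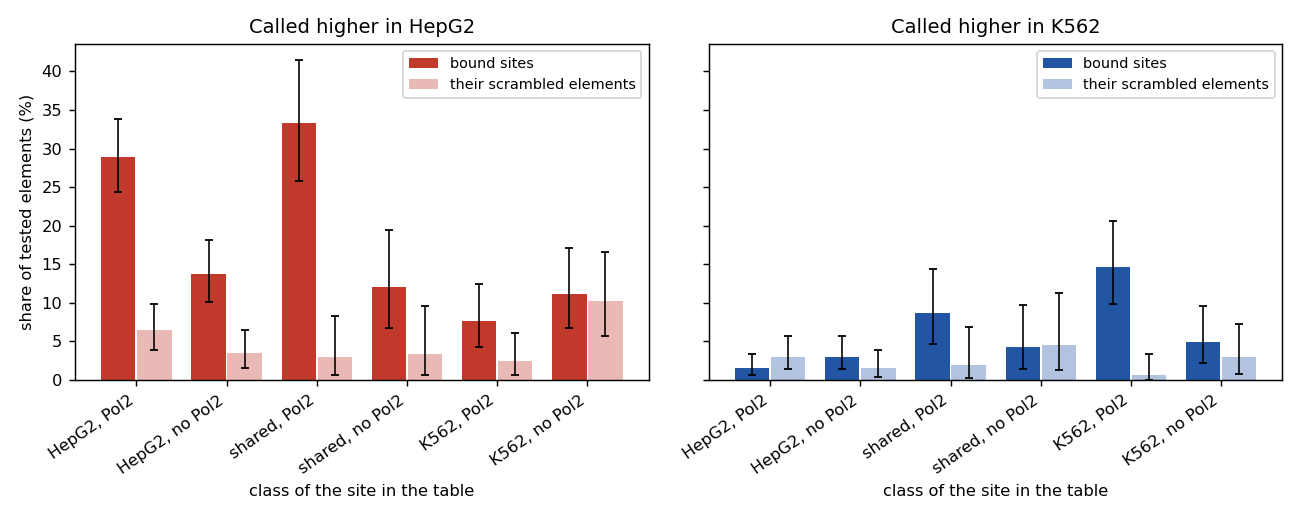
Share of tested elements called higher in HepG2 (left) and in K562 (right), in percent, for the bound sites of each class (dark bars) and their scrambled elements (pale bars), with 95% exact binomial intervals that treat elements as the sampled unit. Shares towards HepG2 are highest for shared and HepG2-bound sites with Pol2, 33.3% and 28.9%, and the share towards K562 is highest for K562-bound sites with Pol2, 14.7%.

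Sites were named by a rule: the largest called differences of each class and direction among sites whose barcodes all had that sign, whose transfections did not overlap and which do not lie on chromosome 8. Agreement of the barcodes in sign and transfections that do not overlap were thus required of a named site and are no support for it. Leaving out a transfection leaves that line with 1, which is assumed to vary like the other groups, so a call can be lost there while the difference stays as large.

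HepG2-bound sites with Pol2 gave the largest number of differences. Of 377 such sites 109 were higher in HepG2, 28.9% (95% exact interval 24.4 to 33.8), and 6 were higher in K562, 1.59% (0.586 to 3.43), against 6.42% and 3.04% of their scrambled elements. The 109 sites had a median difference of 1.25, and 65 of them exceeded 1, 31 exceeded 2 and 11 exceeded 3 on the log2 scale. Of the 6 sites towards K562 none reached 1, and the largest difference was -0.75.

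The site chr17:74547258 had log2 RNA/DNA of 5.26 and 5.77 in the HepG2 transfections and of -0.21 and 0.23 in the K562 transfections. Its K562 values lay at the level of scrambled elements, and the fitted difference was 5.50 ± 0.23 (SE), a 45.4-fold ratio (edgeR adjusted p = 3.59e-07). Its 4 barcodes gave differences from 5.48 to 7.18, the highest of them from a tag with 14 and 1 K562 RNA reads. The site chr3:13512455 was at 3.97 and 4.40 in HepG2 and at -0.73 and -0.77 in K562, a difference of 4.95 ± 0.19 (edgeR adjusted p = 2.59e-07). Its K562 values were below the typical scramble, so part of its difference lay on the K562 side. Its 3 barcodes gave differences from 4.19 to 7.56, the highest of them from a tag with 126 and 5 K562 RNA reads. Values of 4.30 and 4.28 in HepG2 and -0.33 and 0.16 in K562 were measured for chr6:64275530, a difference of 4.36 ± 0.18, with its 4 barcodes between 4.06 and 4.68.

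Towards K562, the largest differences of this class with all barcodes of like sign were small. The site chr14:35816941 was at -0.55 and -0.36 in HepG2 and at -0.04 and 0.18 in K562, a difference of -0.53 ± 0.12 (edgeR adjusted p = 0.0154). For chr16:55794343 the HepG2 values were -0.15 and -0.21 and the K562 values 0.44 and 0.19, a difference of -0.50 ± 0.12 (edgeR adjusted p = 0.02). Neither was active in either line by the rule given further on. Without HepG2 transfection 1 or 2 the difference of chr14:35816941 was -0.43 and -0.62 (edgeR adjusted p = 0.178 and 0.0646), and without K562 transfection 2 it was -0.41 (0.104). That of chr16:55794343 was -0.53 and -0.47 without HepG2 transfection 1 or 2 (edgeR adjusted p = 0.119 and 0.134), and -0.37 without K562 transfection 1 (0.112).

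HepG2-bound sites without Pol2 gave fewer calls. Higher in HepG2 were 41 of 298 sites, 13.8% (95% exact interval 10.1 to 18.2), and higher in K562 were 9, 3.02%, against 3.49% and 1.55% of their scrambled elements. The sites towards HepG2 had a median difference of 0.87, and 17 exceeded 1 and 3 exceeded 2. The largest value belonged to chr6:89850041, at 4.43 and 4.67 in HepG2 and 0.11 and -0.93 in K562, which rests on the single barcode described with its sequence. Next came chr20:52417504, at 2.69 and 2.56 in HepG2 and -0.23 and 0.11 in K562, a difference of 2.67 ± 0.18 (edgeR adjusted p = 6e-06) that its 4 barcodes gave as 2.26 to 3.90. The site chr22:43804178 was at 2.10 and 1.91 against -0.23 and 0.07, a difference of 2.08 ± 0.16. In each of these 2 sites the K562 values were near those of scrambled elements.

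The counterexamples of this class were led by chr9:137118098, labelled HepG2-bound and higher in K562. It was at 0.02 and -0.06 in HepG2 and at 0.83 and 0.93 in K562, a difference of -0.90 ± 0.10 (edgeR adjusted p = 0.000198), and its 4 barcodes lay between -1.47 and -0.62. It was active in K562 and at the level of scrambled elements in HepG2. The site chr3:80692728 was at -0.44 and -0.35 against 0.53 and 0.23, a difference of -0.78 ± 0.17 (edgeR adjusted p = 0.0137). Without HepG2 transfection 1 or 2 the difference was -0.74 and -0.82 (edgeR adjusted p = 0.151 and 0.106), and without K562 transfection 1 it was -0.62 (0.059).

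K562-bound sites with Pol2 leaned to K562. Higher in K562 were 27 of 184 sites, 14.7% (95% exact interval 9.90 to 20.6), and higher in HepG2 were 14, 7.61% (4.22 to 12.4), against 0.606% and 2.42% of their scrambled elements. Among the called sites 11 exceeded a difference of 1 towards K562 and 7 towards HepG2. Their means over all 184 sites were 0.24 and 0.26 in the HepG2 transfections and 0.25 and 0.21 in the K562 transfections, and these groups overlapped. The means of HepG2-bound sites with Pol2 were 0.58 and 0.59 in HepG2 and 0.10 and 0.10 in K562. The class difference between HepG2-bound and K562-bound sites with Pol2 was 0.34 and 0.33 in the HepG2 transfections and -0.16 and -0.11 in the K562 transfections. It shifted by 0.47 between the lines (the same exact permutation test, p = 0.333). Without Pol2 the same shift was 0.03.

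The largest difference of all bound sites towards K562 was that of chr10:24858332. It had log2 RNA/DNA of -0.06 and -0.22 in HepG2 and of 2.49 and 2.67 in K562. The difference was -2.73 ± 0.12 (edgeR adjusted p = 5.08e-07), a 6.63-fold ratio towards K562 relative to the scrambled elements of each line. Its HepG2 values lay at the level of scrambled elements. The site chr10:17038369 was active in both lines, at 0.85 and 0.70 in HepG2 and 2.19 and 2.41 in K562, with a difference of -1.54 ± 0.24 (edgeR adjusted p = 0.00186) on a mean of 485 DNA reads per library. Its 4 barcodes ranged from -2.23 to -0.43.

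Some sites labelled K562-bound were far more active in HepG2. The most extreme was chr10:9867491, at 5.42 and 5.81 in HepG2 and 0.86 and 0.34 in K562, a difference of 4.99 ± 0.23 (edgeR adjusted p = 6.51e-07). It was active in both lines. Its 3 barcodes gave 4.93, 5.55 and 5.21, so the difference did not rest on any one of them. A site active in both lines, chr10:103489821, was at 3.77 and 3.86 in HepG2 and 1.63 and 1.83 in K562, a difference of 2.08 ± 0.12 with barcodes from 1.94 to 2.30. The difference of 2.18 ± 0.15 of chr11:117042153, from 2.15 and 1.96 in HepG2 and 0.03 and -0.28 in K562, leaned on a single barcode. Without that barcode it was 0.29 (edgeR adjusted p = 0.531). All 14 sites of this class higher in HepG2 were active in HepG2, and 8 of them also in K562.

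K562-bound sites without Pol2 were close to their scrambled elements. Higher in HepG2 were 18 of 161 sites, 11.2% (95% exact interval 6.76 to 17.1), against 10.2% of the scrambled elements (5.70 to 16.6), and higher in K562 were 8, 4.97%, against 2.92%. Sizes differed more than counts: 6 sites and 0 of 137 scrambled elements had a called difference of at least 1 towards HepG2 (14 of these scrambled elements were called towards HepG2 in edgeR at any size). The site chr1:116674585 was at 1.79 and 2.0 in HepG2 and 0.08 and -0.28 in K562, a difference of 2.0 ± 0.13 (edgeR adjusted p = 6e-06) with 4 barcodes from 1.85 to 2.25. At chr18:20047973 the values were 2.46 and 2.80 against 0.38 and 0.70, a difference of 2.10 ± 0.18. Both sites carry the K562 label. The site with the largest fitted value, chr6:159261618, at 2.88 ± 0.36, had a mean of 296 DNA reads per library. Without its highest barcode its difference was 1.18 (edgeR adjusted p = 0.359).

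Towards K562 this class held chr5:19019054, at 0.86 and 0.25 in HepG2 and 1.41 and 1.74 in K562, a difference of -1.0 ± 0.23 (edgeR adjusted p = 0.0159). Without HepG2 transfection 2 the difference was -0.72 (edgeR adjusted p = 0.115), and without K562 transfection 2 it was -0.84 (0.102). The other named site, chr6:15461661, was at -0.40 and -0.25 against 0.47 and 0.53, a difference of -0.82 ± 0.13 (edgeR adjusted p = 0.00197), which was -0.75 without HepG2 transfection 1 (0.0677). It was active in neither line.

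Shared sites with Pol2, labelled as bound in both lines, had the highest share of called differences of the 6 classes, a comparison of classes that was not tested. Higher in HepG2 were 50 of 150 sites, 33.3% (95% exact interval 25.9 to 41.5), and higher in K562 were 13, 8.67% (4.70 to 14.4), against 2.94% and 1.96% of their scrambled elements. A difference of at least 1 was called in 27 sites towards HepG2 and 6 towards K562. Their mean over all 150 sites was 0.90 and 0.92 in the HepG2 transfections and 0.41 and 0.49 in the K562 transfections.

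The site chr6:36634962 had the largest difference of all elements tested. It was at 6.35 and 6.31 in HepG2 and at 0.31 and 0.26 in K562, a difference of 6.05 ± 0.07 (edgeR adjusted p = 3.36e-11) and a 66.2-fold ratio, on a mean of 9869 DNA reads per library. It was active in HepG2 and below the bound for activity in K562. The shared sites chr1:160983700 and chr6:7058754 were active in both lines and still differed strongly. The former was at 5.02 and 5.42 in HepG2 and 0.66 and 1.39 in K562, a difference of 4.17 ± 0.26 (edgeR adjusted p = 4.62e-06). The latter was at 4.63 and 4.35 against 0.96 and 1.37, a difference of 3.31 ± 0.20, although its barcodes ranged from 1.13 to 4.87.

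The shared site chr1:235012237 went the other way, at -0.20 and -0.34 in HepG2 and 1.80 and 1.65 in K562. Its difference of -1.99 ± 0.14 (edgeR adjusted p = 1.06e-05) was alike in all 4 barcodes, from -2.08 to -1.86. At chr6:3410120 the values were -0.53 and -0.16 against 1.41 and 1.51, a difference of -1.80 ± 0.18 (edgeR adjusted p = 8.78e-05). Both were at or below the level of scrambled elements in HepG2 and active in K562, although labelled as bound in both.

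**Figure D3:**
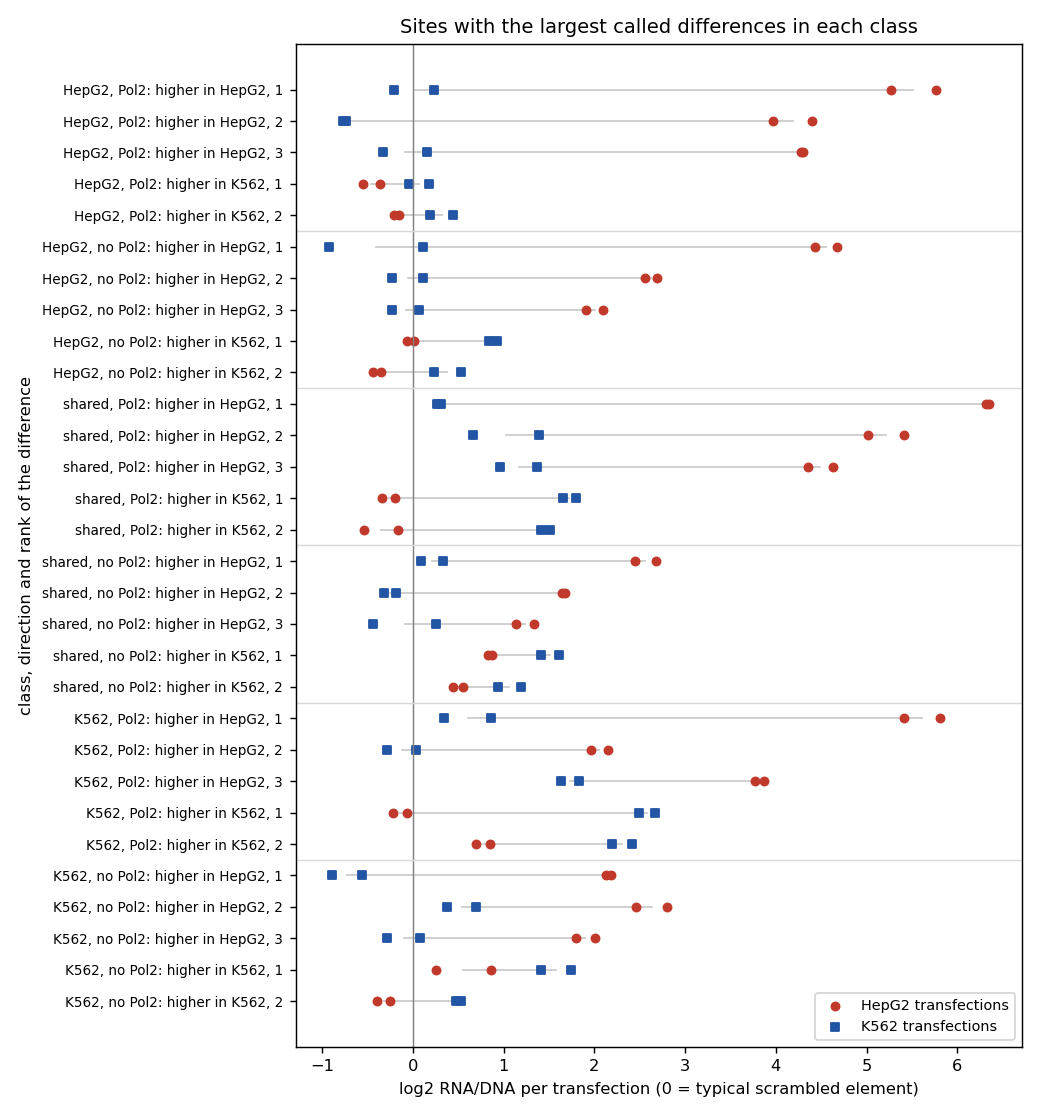
Log2 RNA/DNA in each HepG2 (red circles) and K562 (blue squares) transfection for the named sites of each class, 3 towards HepG2 and 2 towards K562, with the largest called differences among sites whose barcodes all had one sign and whose transfections did not overlap; grey lines join the means. The rows towards HepG2 span wider gaps than the rows towards K562 in each class but K562-bound with Pol2, where the gap of 2.73 towards K562 exceeds 2 of the 3 gaps towards HepG2.

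Shared sites without Pol2 were higher in HepG2 in 14 of 116 cases, 12.1% (95% exact interval 6.76 to 19.4), and higher in K562 in 5, 4.31%, against 3.41% and 4.55% of their scrambled elements. The site chr12:122851539 was at 2.45 and 2.68 in HepG2 and 0.09 and 0.33 in K562, a difference of 2.35 ± 0.13 (edgeR adjusted p = 1.83e-06) with barcodes from 2.26 to 2.59. The site chr22:24107550 was at 1.67 and 1.64 against -0.32 and -0.18, a difference of 1.91 ± 0.12. Both had K562 values near those of scrambled elements. The third site named by the rule, chr16:87499131, had a difference of 1.29 ± 0.29, and of 0.34 without its highest barcode (edgeR adjusted p = 0.599). Without HepG2 transfection 1 or 2 its difference was 1.19 and 1.38 (edgeR adjusted p = 0.223 and 0.138).

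Of the sites towards K562 in this class, chr21:46388115 was active in both lines, at 0.87 and 0.83 in HepG2 and 1.60 and 1.41 in K562, a difference of -0.66 ± 0.11 (edgeR adjusted p = 0.00342). Without HepG2 transfection 1 or 2 it was -0.68 and -0.64 (edgeR adjusted p = 0.0713 and 0.083). The site chr7:97915700 was at 0.44 and 0.55 against 1.19 and 0.94, a difference of -0.57 ± 0.14 (edgeR adjusted p = 0.0205). Without HepG2 transfection 1 or 2 its difference was -0.52 and -0.62 (edgeR adjusted p = 0.19 and 0.109), and without K562 transfection 1 it was -0.44 (0.0912).

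**Figure D4:**
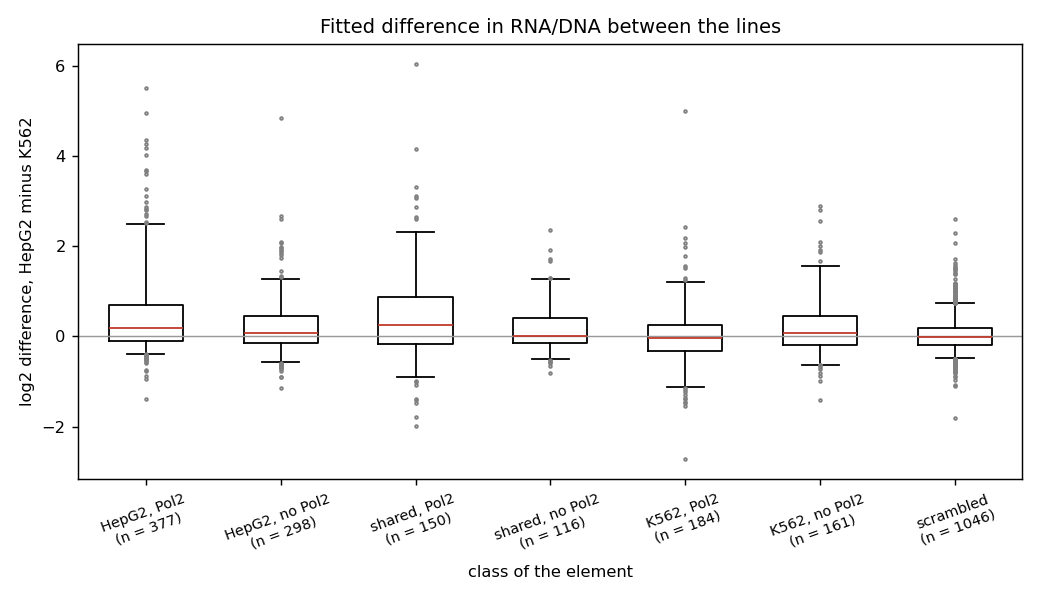
Fitted log2 difference, HepG2 minus K562, for the bound sites of each class and for all scrambled elements; boxes span the middle 50% with the median in red, whiskers the 5th to 95th percentile, and points lie outside them. Medians lie between -0.03 for K562-bound sites with Pol2 and 0.24 for shared sites with Pol2, and the upper whiskers of HepG2-bound and shared sites with Pol2 reach 2.50 and 2.47.

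The 95th percentile of the difference was 2.50 in HepG2-bound and 2.47 in shared sites with Pol2, and 1.24 in K562-bound sites with Pol2, against 0.75 in scrambled elements. The 5th percentile was -1.14 in K562-bound and -0.95 in shared sites with Pol2, and -0.40 in HepG2-bound sites with Pol2, against -0.49 in scrambled elements. HepG2-bound sites with Pol2 thus had a wide upper tail and a lower tail no wider than that of scrambles. In K562-bound sites with Pol2 the upper and the lower tail were both wider than those of scrambles.

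Activity in each line was taken from the same fit, with a site called active when its edgeR adjusted p was under 0.05 and its log2 RNA/DNA exceeded the 95th percentile of scrambled elements, 0.66 in HepG2 and 0.52 in K562. Over all elements 14% were active in HepG2, 8.15% in K562 and 5.15% in both. Of bound sites 21.7%, 12.8% and 8.09% were active in HepG2, in K562 and in both, and of scrambled elements 4.59%, 2.49% and 1.53%. The calls of activity and of difference share these libraries, so their overlap is a description. Of the 246 sites higher in HepG2, 147 were active in HepG2 and not in K562, 59 were active in both and 40 in neither. Of the 68 sites higher in K562, 30 were active in K562 and not in HepG2, 10 in both and 28 in neither. None of the 246 was active in K562 alone and none of the 68 in HepG2 alone.

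Sites active in K562 were divided. Of these 164 sites 59 were higher in HepG2, 40 higher in K562 and 65 not called different. HepG2-active sites were mostly higher in HepG2, in 206 of 279 cases, with 10 higher in K562 and 63 not called. The 104 sites active in both lines were higher in HepG2 in 59 cases and higher in K562 in 10, with a median difference of 0.61. In shared sites with Pol2 those counts were 27 and 3 of 37. In K562-bound sites with Pol2 they were 8 and 4 of 19. Across the 1286 sites, Pearson's r between activity in HepG2 and in K562 was 0.396 and Spearman's rho 0.383, and across the scrambled elements they were 0.372 and 0.408. The points share libraries and DNA reads and carry no test.

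The 40 sites higher in HepG2 and active in neither line had a median log2 RNA/DNA of 0.47 in HepG2 and -0.19 in K562, and 36 of them were below 0 in K562. Of the 28 sites higher in K562 and active in neither line 27 were below 0 in HepG2, with medians of -0.38 in HepG2 and 0.24 in K562. A called difference with both values under the bounds for activity favours such signs, so these counts are a description.

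The values of the scrambled partner are set beside those of the called sites. Of all tested scrambled elements 4.97% were called higher in HepG2 and 2.29% higher in K562. Of the 246 sites higher in HepG2, 173 had a tested scramble, which was higher in HepG2 in 9 cases and higher in K562 in 4. The median difference of these sites was 0.93 and that of their scrambles -0.04. The sites were chosen by their own difference and the scrambles were not, so this gap is a description. Of the 681 sites with a tested scramble that were not called, 337 had the larger and 344 the smaller difference of the pair. Of the 68 sites higher in K562, 47 had a tested scramble, which was higher in K562 in 2 cases and higher in HepG2 in 0 (39 scrambles of sites not called different were called towards HepG2 in edgeR). The median difference of the 47 sites was -0.63 and that of their scrambles -0.05. Each of the 901 sites with a tested scramble was also tested against it, in limma on log2 RNA/DNA of the 4 transfections. That test called 101 sites towards HepG2 and 36 towards K562. Of these 137 sites 109 were called in the same direction without the scramble and 2 in the opposite direction.

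Scrambled elements could themselves differ. The scramble of chr1:225133826 was at 1.91 and 1.95 in HepG2 and -0.13 and -0.14 in K562, a difference of 2.07 ± 0.10 (edgeR adjusted p = 8.68e-07), larger than the 0.74 of its bound site. Its barcodes ranged from 0.73 to 3.14. The scramble of chr2:8819195 was at 0.24 and 0.01 in HepG2 and 2.08 and 1.81 in K562, a difference of -1.82 ± 0.13 (edgeR adjusted p = 8.73e-06), while its HepG2-bound site was at -0.69. In both pairs site and scramble differed in the same direction. These pairs were chosen for their scrambles, which had the extreme called differences, and do not stand for all pairs.

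Barcodes of an element agreed on the direction in most called sites, which the call on their summed reads itself favours. All barcodes had the sign of the fitted difference in 221 of the 246 sites higher in HepG2 and in 51 of the 68 higher in K562. The same held in 193 of the 972 bound sites not called. Among scrambled elements called towards HepG2 this was so in 23 of 52, and in 22 of 24 called towards K562. When the barcode that added most to the difference was left out of every element, 160 sites towards HepG2 and 30 towards K562 passed. All 190 were among the 314 called with all barcodes. Leaving out that barcode tends to lower the difference, so this overlap is a description.

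Neighbouring sites did not always differ alike. Of all tested bound sites 24.4% were called in either direction. There were 65 pairs of adjacent tested sites within 10000 bases of each other. Neither member was called in 35 pairs, a single member in 23 and both members in 7. Of these 7 pairs, 4 differed in the same direction and 3 in opposite directions, and all pairs named here were chosen after their values were seen. The sites chr1:32420381 (shared with Pol2) and chr1:32421675 (K562-bound with Pol2), 1294 bases apart, had differences of 0.93 and -1.12 (edgeR adjusted p = 0.0223 and 0.00947). The sites chr16:30786719 (HepG2-bound with Pol2) and chr16:30787323 (shared with Pol2), 604 bases apart, had differences of 0.62 and -0.48 (edgeR adjusted p = 0.00272 and 0.0144). Each of these pairs thus held a site higher in HepG2 and a site higher in K562. The third such pair was chr13:114439404 (HepG2-bound with Pol2) and chr13:114445111 (shared with Pol2), 5707 bases apart, at 0.95 and -0.61. Alike were chr16:85548718 (HepG2-bound with Pol2) and chr16:85558606 (shared with Pol2), 9888 bases apart, at 2.37 and 2.23. So were chr14:34801513 and chr14:34802110, at 0.47 and 0.41, and chr20:343211 and chr20:352563, at 2.60 and 1.48. The last alike pair, chr2:8819195 and chr2:8821409, was at -0.69 and -0.51.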

How the data were processed

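Values are the deposited read counts of each barcode in each library, and per the file headers they were not normalized. The submitters' processing notes name cutadapt, without a version, and hg19; no source used here gives the aligner, counter or filters. Rows were assigned to libraries by the line, read type and replicate they name. Counts were summed over an element's passing barcodes (8868 barcodes, 97.9% to 98.7% of reads), scaled by TMM on the scrambled elements and fitted in 4 groups without a block with edgeR 4.0.16 (R 4.3.3), tested on simulated data, with Benjamini-Hochberg adjustment. The simulated libraries were drawn independently with the same spread for DNA and RNA. They thus do not cover the noisier RNA libraries or libraries that deviate together, and cannot give the error rate of these data. Log2 RNA/DNA per transfection used a pseudocount of 1. Exact binomial intervals cover counting of elements only, and reads carry no molecular identifiers. Alternatives used limma 3.58.1 and DESeq2 1.42.0.

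The replicate number pairs libraries, since all libraries of a replicate experiment shared a sequencing lane per the labels; same-numbered groups deviated together (Pearson r from 0.17 to 0.584 over 6 pairs of groups). The variance between replicates was 2.86 (HepG2) and 2.54 (K562) times counting noise for DNA, and 16.5 and 37.7 times for RNA, so all libraries were kept as separate replicates. Between the DNA of the lines it was 3.95 in replicate 1 and 1.66 in replicate 2. Barcodes without a read were rare in the libraries of replicate 1 (0 to 15 of 12380) and frequent in those of replicate 2 (290 to 1204), for a reason no source used here gives. In tested elements K562 RNA had 1 such barcode in replicate 1 and 180 in replicate 2, and differences of single barcodes with few reads depend on this.

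Sites were named by a rule: per class, the 3 largest called differences towards HepG2 and the 2 towards K562 among sites whose barcodes all had that sign and whose transfections did not overlap, plus the extreme sites and scrambled elements. Sites on chromosome 8 were counted but not named. Members and lists were chosen with earlier results of these data known. Element sequences were not used here.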

Additional observations from a re-analysis of the deposited data

Results flagged for a closer look

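Every named site was flagged because its difference between HepG2 and K562 passed the test of the interaction itself. In HepG2-bound sites with Pol2 the log2 differences (HepG2 minus K562) were 5.50 (chr17:74547258), 4.95 (chr3:13512455), 4.36 (chr6:64275530), -0.53 (chr14:35816941) and -0.50 (chr16:55794343). Without Pol2 they were 4.85 (chr6:89850041), 2.67 (chr20:52417504), 2.08 (chr22:43804178), -0.90 (chr9:137118098) and -0.78 (chr3:80692728).

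In K562-bound sites with Pol2 they were 4.99 (chr10:9867491), 2.18 (chr11:117042153), 2.08 (chr10:103489821), -2.73 (chr10:24858332) and -1.54 (chr10:17038369), and without Pol2 2.88 (chr6:159261618), 2.10 (chr18:20047973), 2.0 (chr1:116674585), -1.0 (chr5:19019054) and -0.82 (chr6:15461661). In shared sites with Pol2 they were 6.05 (chr6:36634962), 4.17 (chr1:160983700), 3.31 (chr6:7058754), -1.99 (chr1:235012237) and -1.80 (chr6:3410120), and without Pol2 2.35 (chr12:122851539), 1.91 (chr22:24107550), 1.29 (chr16:87499131), -0.66 (chr21:46388115) and -0.57 (chr7:97915700). The scrambled elements of chr1:225133826 and chr2:8819195 were at 2.07 and -1.82. Groups of 2 transfections are too small to look for a single outlying library.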

How the results depend on the processing

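Counts are given as towards HepG2 and towards K562, against 246 and 68 in all bound sites. For sites against their own scramble they were 101 and 36. That test was limma on the 4 transfections and covered only sites with a tested scramble, of which edgeR called 173 and 47. Its counts thus differ from 246 and 68 in sites and test as well as in the scramble. Counts were 100 and 14 for the median over barcodes in limma and 160 and 30 if the barcode that adds most is left out. At a log2 difference of at least 1 they were 129 and 18. The lowest and highest counts without a transfection were 149 and 266 towards HepG2 and 26 and 60 towards K562.

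HepG2-bound sites with Pol2 gave 55 and 0 with the median over barcodes, 65 and 0 at a difference of at least 1, and towards K562 10 with DESeq2, 1 without the barcode that adds most and 3 without the highest barcode; the K562 count without a transfection was 0 to 7. HepG2-bound sites without Pol2 gave 9 and 2 with the median, 17 and 4 without the barcode that adds most, 23 and 5 without the highest barcode, 17 and 0 at a difference of at least 1, and 14 towards K562 with limma-voom weighted by group; without a transfection 20 to 47 and 2 to 12. K562-bound sites with Pol2 gave 4 and 5 with the median, 8 and 15 without the barcode that adds most, 7 and 11 at a difference of at least 1, and 9 towards HepG2 without the highest barcode; without a transfection 8 to 20 and 13 to 21. K562-bound sites without Pol2 gave 4 and 0 with the median, 6 and 1 without the barcode that adds most, 10 and 5 without the highest barcode, 6 and 1 at a difference of at least 1, and 3 towards K562 with no minimum count; without a transfection 6 to 22 and 1 to 5. Shared sites with Pol2 gave 24 and 7 with the median, 27 and 6 at a difference of at least 1, and 8 towards K562 without the barcode that adds most; without a transfection 34 to 49 and 7 to 12. Shared sites without Pol2 gave 4 and 0 with the median, 7 and 1 without the barcode that adds most, 7 and 0 at a difference of at least 1, 8 towards HepG2 without the highest barcode, and towards K562 3 with the RNA libraries alone, 3 with no minimum count and 3 with the replicate block by transfection; without a transfection 6 to 18 and 0 to 4. In limma on the median over barcodes the counts of 0 are of classes with 6, 8 and 5 calls in edgeR.

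The median difference of HepG2-bound sites with Pol2 was 0.13 with TMM on all elements, 0.20 with at least 50 reads, 0.15 with the median over barcodes, 0.16 with no minimum count, 0.088 without the barcode that adds most and 0.15 without the highest barcode (0.15 to 0.19 without a transfection). That of K562-bound sites was -0.078 with Pol2 and 0.031 without with TMM on all elements, 0.0052 and 0.12 with no minimum count, and -0.070 with Pol2 without the highest barcode (-0.042 to -0.011 with Pol2 and 0.035 to 0.093 without Pol2, with a transfection left out). That of shared sites with Pol2 was 0.13 without the barcode that adds most and 0.12 without the highest barcode (0.18 to 0.25), and without Pol2 -0.029 with TMM on all elements and 0.072 with the median over barcodes (0.021 to 0.063). The mean difference of K562-bound sites with Pol2 was 0.02, and -0.043 in sites with at least 2000 DNA reads. The difference of chr6:89850041 was -0.11 without the barcode that adds most and -0.12 without the highest barcode. Apart from that site, every named site and scramble kept its direction in the alternatives run on it. The cause of these changes was not tested.

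With the replicate block 251 and 66 sites were called, and 252 and 64 with a block per transfection; the paired fits left all 32 named calls in place and shared 308 and 299 of the 314 calls. DESeq2 called 278 and 85 sites and included all 314. K562 RNA was the noisiest kind of library. The smallest called difference was alike in both directions, 0.33 among the 246 sites towards HepG2 and -0.34 among the 68 towards K562.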
